A study of Mus musculus with 11 samples.

Results

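The integrin chains of muscle and matrix cells were followed through the first 4 weeks after birth in mouse muscle cells sorted for green fluorescent protein (GFP). They comprised 10 genes, the alpha chains Itga1, Itga3, Itga4, Itga5, Itga6, Itga7, Itga9 and Itgav and the beta chains Itgb1 and Itgb5. Every probe set annotated with 1 of these symbols alone was taken, so 10 of 18193 genes and 35 of 45037 probe sets on an Affymetrix mouse array were described. Itgb1 had 6 probe sets, Itga4 and Itgav had 5 each, Itga5 and Itgb5 had 4, Itga3 and Itga9 had 3, Itga1 and Itga6 had 2 and Itga7 had 1. For each gene the brightest probe set, by its mean across the 11 arrays, is called the leading one.

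All animals were Pax3GFP/+ on a C57BL/6J background, so every group carried 1 Pax3 allele that makes GFP and 1 intact allele. GFP-positive living cells were collected at postnatal day 1 (P1, 4 arrays), day 12 (P12, 4 arrays) and day 28 (P28, 3 arrays). The P1 and P12 cells came from trunk muscle and are described as proliferating satellite cells, the stem cells of skeletal muscle. The P28 cells came from abdominal, pectoral and intercostal muscle and are described as satellite cells, and the number of animals behind an array is not stated. Age and muscle therefore coincide for P28, whose internal sample names begin like those of P1 and end differently from those of both earlier ages, and age, muscle and a possible batch cannot be told apart. The arrays of 1 age are called biological replicates, but nothing says that they were separate litters, so p-values measure the spread between these arrays.

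Integrins are cell surface receptors in which 1 alpha chain and 1 beta chain join to bind the extracellular matrix or a ligand on another cell. The alpha chain largely sets the ligand, and the beta chain carries most of the link to the actin cytoskeleton through talin and kindlin. In muscle, the pair of Itga7 and Itgb1 binds laminin and anchors fibres and satellite cells to the basement membrane, and Itgb1 is known to be needed for satellite cells to stay quiescent. Itga3 and Itga6 also give laminin receptors, Itga5 gives the classical fibronectin receptor and Itga1 a collagen receptor, all with Itgb1. Itga4 and Itga9 pair with Itgb1 to bind Vcam1, fibronectin variants, tenascin-C or osteopontin, and Itgav pairs with several beta chains, among them Itgb5, to bind vitronectin.

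Array medians ran between 5.50 and 5.57 on the log2 scale, and 0 pairs of arrays held identical values. The log2 difference between the 3' and 5' Gapdh control probe sets, a measure of RNA quality and labelling, was 1.62 to 2.79 at P1, 1.32 to 3.05 at P12 and under both at P28, where it was 0.79 to 0.99. The P1 and P12 arrays fell into 2 sets, with replicates 1 and 2 at 2.59 to 3.05 and replicates 3 and 4 at 1.32 to 1.69. The cause of this split was not tested. The satellite cell transcription factor Pax7 was present at 10.75 ± 0.33 at P1, 10.78 ± 0.23 at P12 and 10.72 ± 0.18 at P28 (SD, n = 4, 4 and 3 arrays). Pax3, Myf5, Cdh15 and Vcam1, further satellite cell markers, averaged between 8.29 and 11.25 at every age, and of these Cdh15 alone passed in a comparison (0.38 ± 0.14 in P28 against P1). Of the whole list of 11 satellite cell and myoblast markers, however, 5 passed as higher in P28 against P1 (background 19.9% of genes), among them Chrdl2 (3.45 ± 0.15), Sdc4 (2.49 ± 0.16), Des (1.84 ± 0.14) and Calcr (1.35 ± 0.17), and 0 passed as lower, with 0 lower at an unadjusted p under 0.05 in limma. The log2 summed level of this list was 13.12 to 13.79 at P1, 13.48 to 13.87 at P12 and 14.31 to 14.45 at P28. Differentiating muscle genes were present too, with a log2 summed level over 11 genes of 13.10 to 13.61 at P1, 13.38 to 14.12 at P12 and 14.75 to 15.30 at P28. They did not move together. In P28 against P12, 5 passed as higher and 3 as lower (background 15.5% and 15.4% of genes). In P28 against P1, 6 passed as higher and 3 as lower (background 19.9% and 16.3%). The lower ones against P1 were Myh8 (-3.57 ± 0.24), Myh3 (-2.07 ± 0.20) and Mymx (-1.37 ± 0.23). Markers of other cells were also present, and those of endothelial cells, leukocytes, pericytes and fibroblasts were more often higher than lower at P28. The log2 summed level of 8 endothelial markers was 8.99 to 9.78 at P1, 9.38 to 9.96 at P12 and 11.00 to 11.73 at P28, with Kdr the brightest on average. That of 10 leukocyte markers was 10.61 to 11.03, 10.27 to 10.83 and 11.81 to 12.60, with 1 marker, the integrin chain Itgam, under the background controls and Lyz2, the brightest at P28, at 7.36, 7.13 and 11.17 on average. That of 8 pericyte and smooth muscle markers was 12.48 to 13.10, 12.79 to 13.41 and 13.40 to 13.57, and that of 7 fibroblast markers was 13.50 to 14.18, 13.57 to 14.17 and 14.21 to 14.68. The brightest of these on average were Acta2 and Col3a1. Of these lists, 7 of the endothelial, 6 of the leukocyte (Itgam among them), 6 of the pericyte and 4 of the fibroblast markers passed as higher in P28 against P12, where 15.5% of genes did, and 1 leukocyte marker passed as lower. In P28 against P1, 6 pericyte markers passed as higher and 1 as lower. Of 6 Schwann cell and melanocyte markers, 1 passed as higher in P28 against P12 (16.7%) and 0 as lower. Of 2 red blood cell markers, 1 passed as higher. In bulk samples a change in the share of a cell type and a change in RNA per cell cannot be told apart, and the part of these cells in the integrin values was not tested.

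The integrin chains did not move together at P28. Itgb5 and Itga9 were higher than at P12, as was Itga4 on some of its probe sets. Itga6 and 1 probe set of Itga1 were lower. Itga7, Itga5 and the leading probe sets of Itga3 and Itgb1 did not pass in any comparison. A dimmer probe set of Itga3 passed as higher than at P12 and at P1, and another of Itgb1 as higher than at P1. Itgav had probe sets of opposite direction. Values are log2 RMA values, changes are log2 differences with the SE of the limma fit, and a change passed at an adjusted p under 0.05 over all 45037 probe sets.

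Between P12 and P1, 1 of the 35 integrin probe sets passed (2.86%), an Itgav probe set that was higher, where 4.84% of all probe sets passed and 3.25% passed as higher. Of the leading probe sets 0 of 10 passed in limma, with 1 at an unadjusted p under 0.05. In P28 against P12, 16 probe sets passed (45.7%), where 29.4% of all probe sets did. Of these, 11 were higher, against a background of 13.5%, and 5 were lower, against a background of 15.9%. In P28 against P1, 13 probe sets passed (37.1%), close to the background of 35.0%, with 10 higher (background 17.6%) and 3 lower (background 17.4%). Among the leading probe sets 5 of 10 passed in P28 against P12 (background 30.9% of genes) and 2 of 10 in P28 against P1 (background 36.3%). Probe sets of 1 gene can measure the same RNA, and the comparisons share their arrays, so these counts are not independent. The median absolute change of the 35 probe sets was 0.17 in P12 against P1, 0.36 in P28 against P12 and 0.35 in P28 against P1, beside 0.14, 0.26 and 0.29 over all probe sets. Fitted with the Gapdh difference as a covariate, 10 probe sets passed in P28 against P12, 9 higher and 1 lower, and the share of all probe sets that passed was 19.3% in that fit. Every P28 array had a lower Gapdh difference than every earlier array, so this covariate partly coincides with P28. A call can therefore end with it through lower precision, a smaller estimate or both, and these were not separated.

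**Figure D1:**
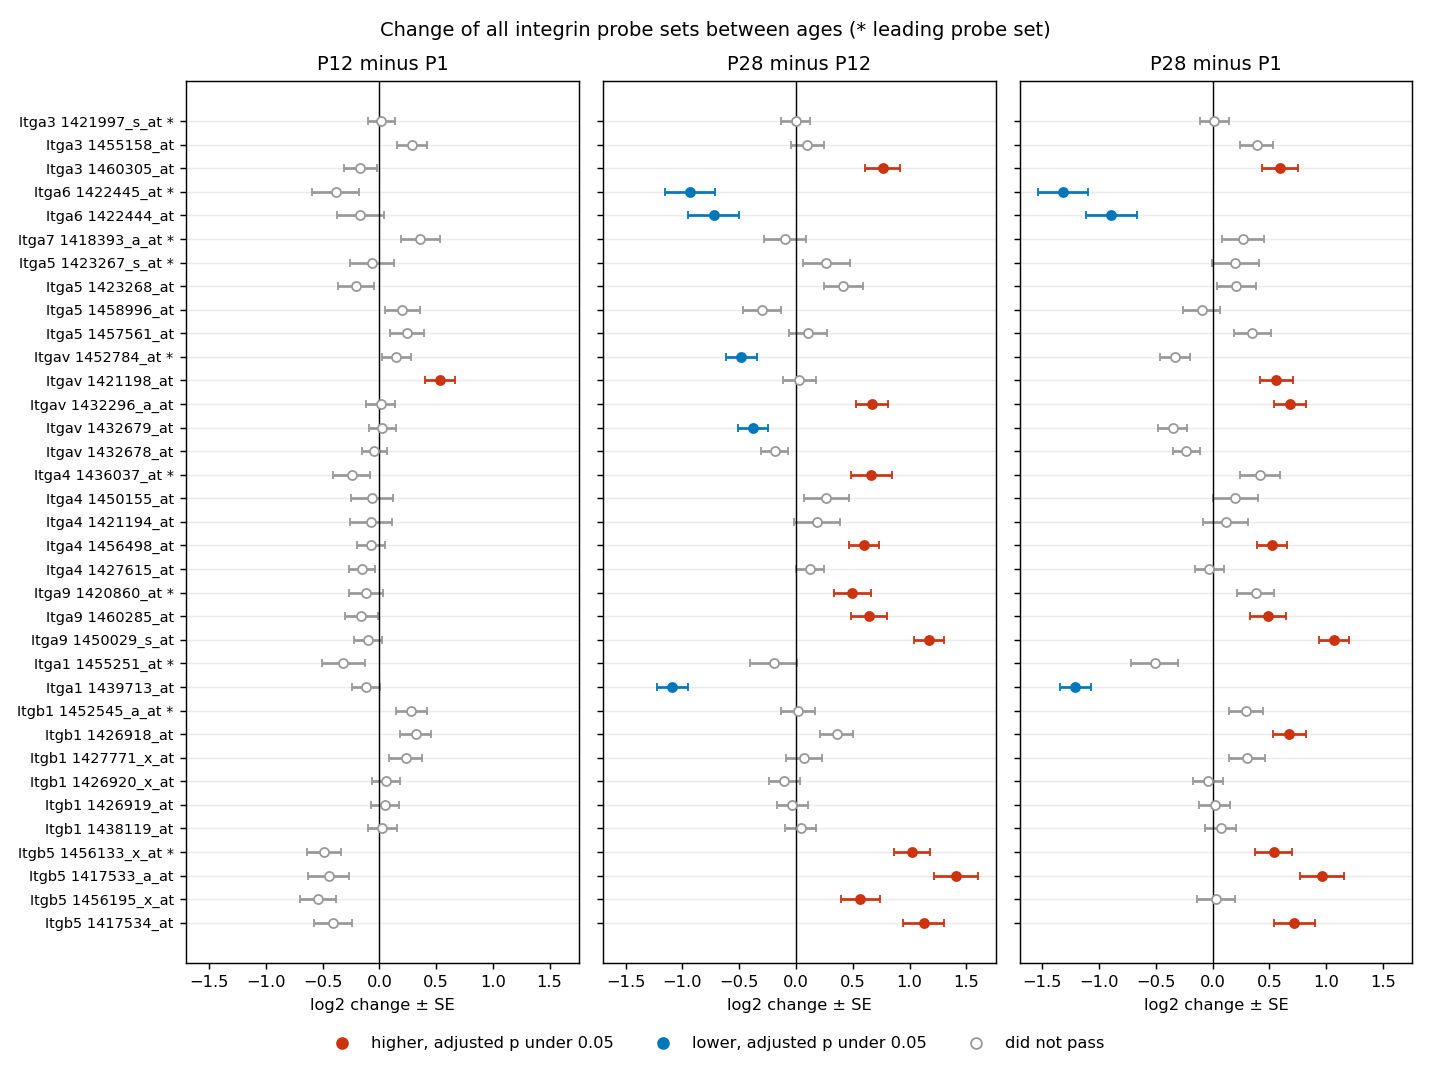
Log2 change (x axis, ± SE from the fit) of each of the 35 integrin probe sets (y axis, grouped by gene, leading probe sets starred) in the 3 comparisons. Filled red and blue points passed as higher and lower; all 4 Itgb5 and all 3 Itga9 probe sets lie to the right in P28 minus P12 and both Itga6 probe sets to the left, while 1 filled point appears in P12 minus P1.

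Among the laminin receptor chains, Itga6 had the clearest decrease. Its leading probe set (1422445_at) read 8.74, 9.06, 8.57 and 8.71 at P1, 8.14, 8.79, 8.50 and 8.10 at P12, and 6.98, 7.95 and 7.41 at P28. Every P28 array was under every P1 and P12 array, and the P1 and P12 arrays overlapped. Itga6 fell by 0.94 ± 0.22 in P28 against P12 (1.91-fold lower, adjusted p = 0.00572) and by 1.32 ± 0.22 in P28 against P1 (2.50-fold lower, adjusted p = 0.000391). Its change in P12 against P1 was -0.39 ± 0.20 and did not pass (adjusted p = 0.342). The other Itga6 probe set (1422444_at) averaged 7.64 ± 0.24 at P1, 7.47 ± 0.37 at P12 and 6.75 ± 0.43 at P28 (SD), and it also passed as lower in P28 against P12 (-0.73 ± 0.22), where the ages overlapped, and against P1 (-0.89 ± 0.22). The first call ended with the Gapdh covariate (-0.36), with only replicates 3 and 4 of the earlier ages (-0.45), and without P12 replicates 1 or 2 or P28 replicates 1 or 3 (-0.72 to -0.52), and the second with the covariate (-0.50). With the Gapdh difference as a covariate the leading probe set changed by -0.72 in P28 against P12 and no longer passed, while its change against P1 passed under every alternative tried. Itga6 is also made by endothelial cells, whose markers were higher at P28, and their part in the Itga6 values was not tested.

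Itga7, the muscle laminin receptor chain, was measured by a single probe set (1418393_a_at) that read 9.45, 9.10, 8.60 and 8.79 at P1, 9.51, 9.37, 9.11 and 9.40 at P12, and 9.03, 9.39 and 9.34 at P28. The 3 ages overlapped. Its changes were 0.36 ± 0.17 in P12 against P1, -0.10 ± 0.19 in P28 against P12 and 0.26 ± 0.19 in P28 against P1 (adjusted p = 0.279, 0.742 and 0.295). The lowest readings were those of P1 replicates 3 and 4, and with only replicates 3 and 4 of P1 and P12 kept, an alternative chosen after the data were seen, the change in P28 against P1 was 0.56 and passed.

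Itga3 gave a leading probe set (1421997_s_at) that overlapped across the ages, at 8.26 ± 0.11 at P1, 8.28 ± 0.15 at P12 and 8.28 ± 0.17 at P28 (SD). Its arrays ran from 8.17 to 8.43 at P1, 8.13 to 8.46 at P12 and 8.09 to 8.42 at P28, and the change in P28 against P1 was 0.02 ± 0.13 (adjusted p = 0.942). A dimmer Itga3 probe set (1460305_at) read 5.80, 5.29, 5.47 and 5.80 at P1, 5.49, 5.52, 5.47 and 5.19 at P12, and 6.12, 6.42 and 6.01 at P28. Its P28 arrays were above all others, and it rose by 0.76 ± 0.16 in P28 against P12 (adjusted p = 0.00241) and by 0.60 ± 0.16 in P28 against P1 (adjusted p = 0.00915), the second of which no longer passed without P28 replicate 2 (0.48). The remaining probe set (1455158_at) changed by 0.39 ± 0.14 in P28 against P1, just short of passing (adjusted p = 0.0503). It passed under 10 alternatives, at 0.34 to 0.69, the highest with the Gapdh covariate, and among them leaving out P1 replicate 1 (0.43), P1 replicate 2 (0.46), or P12 replicate 2 or 4 (0.39 each). The mean of the Itga3 probe sets also passed in P28 against P1 (0.33). The Itga3 probe sets therefore disagreed, and which transcripts each detects was not examined.

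**Figure D2:**
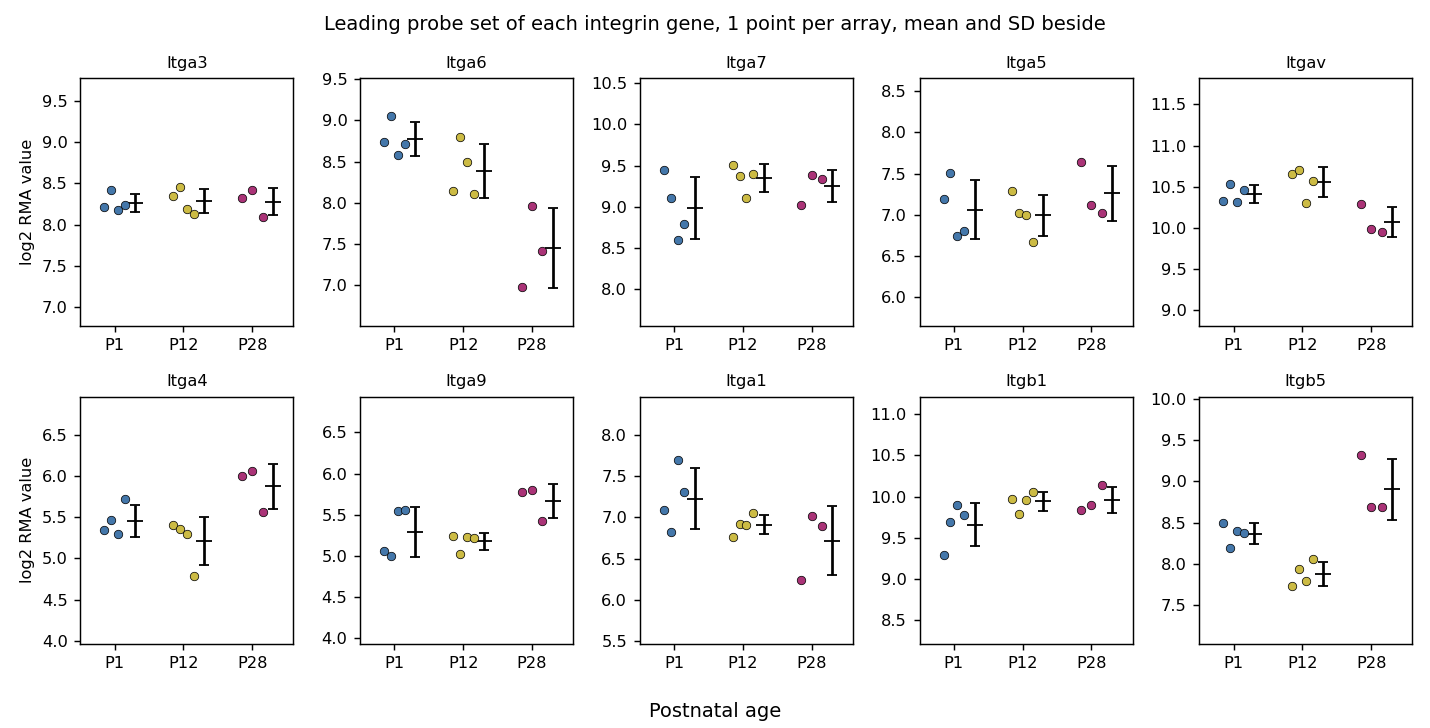
Log2 RMA value (y axis, each panel spanning the same range) of the leading probe set of each integrin gene at P1, P12 and P28 (x axis), with 1 point per array and the mean ± SD beside the points. Itga6 at P28 (6.98 to 7.95) lies under both earlier ages and Itgb5 at P28 (8.69 to 9.32) above them, while Itga3 and Itga7 overlap across the ages.

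Of the chains that read the RGD motif of matrix proteins, Itga5, the fibronectin receptor chain, did not pass in any comparison with any of its 4 probe sets. The leading probe set (1423267_s_at) read 7.19, 7.51, 6.75 and 6.80 at P1, 6.67 to 7.29 at P12, and 7.64, 7.12 and 7.02 at P28, and the ages overlapped. The widest Itga5 change was 0.42 ± 0.17, in P28 against P12 (1423268_at, adjusted p = 0.0811). That change passed, at 0.70, with the Gapdh difference as a covariate and, at 0.53, without P12 replicate 1.

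Itgav, the vitronectin and fibronectin receptor chain, had probe sets that moved apart. The leading one (1452784_at) read 10.33, 10.53, 10.31 and 10.46 at P1, 10.65, 10.70, 10.30 and 10.57 at P12, and 10.29, 9.99 and 9.95 at P28. All P28 arrays were under all P12 arrays, though the highest P28 array (10.29) nearly met the lowest P12 array (10.30), and it fell by 0.48 ± 0.13 in P28 against P12 (adjusted p = 0.0153). A second probe set (1432296_a_at) read 6.35, 6.33, 5.89 and 6.04 at P1, 6.15, 6.21, 6.14 and 6.15 at P12, and 6.96, 6.63 and 6.91 at P28. It rose by 0.67 ± 0.14 in P28 against P12 (adjusted p = 0.00258) and by 0.68 ± 0.14 in P28 against P1 (adjusted p = 0.00181), with every P28 array above every earlier one. Another Itgav probe set (1421198_at) gave the single call of P12 against P1, at 6.50 to 6.97 in P12 cells and 6.07 to 6.36 in P1 cells, a rise of 0.53 ± 0.13 (adjusted p = 0.0356), and it also passed in P28 against P1 (0.56 ± 0.14), though not with the Gapdh covariate (0.47). A dim one (1432679_at), at 3.75 to 4.02 in P28 cells and 4.05 to 4.42 in P12 cells and so near the background controls, fell by 0.38 ± 0.13 in P28 against P12 (adjusted p = 0.0427). That call ended without P1 replicate 3, P12 replicates 1, 2 or 4, or any 1 of the P28 arrays (-0.44 to -0.30), and with the Gapdh covariate (-0.26). The call in P12 against P1 ended without any 1 of P1 replicates 1 to 4 or P12 replicates 2, 3 and 4 (0.47 to 0.57), and within replicates 1 and 2 the change was 0.32. The mean of the 5 Itgav probe sets changed by -0.07 in P28 against P12 and did not pass. The call on the leading probe set also ended with the Gapdh covariate (-0.32), with only replicates 3 and 4 of the earlier ages (-0.36), and without P28 replicate 2 (-0.44) or 3 (-0.42).

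Itga4 and Itga9 are sister chains that share ligands, and the leading probe sets of both were higher at P28 than at P12. Itga4, best known from leukocytes and also made in developing muscle, read 5.35, 5.46, 5.29 and 5.72 at P1, 5.41, 5.36, 5.30 and 4.78 at P12, and 6.00, 6.05 and 5.56 at P28 (leading probe set 1436037_at). The P28 arrays were above the P12 arrays and overlapped those of P1. Itga4 rose by 0.66 ± 0.18 in P28 against P12 (1.59-fold higher, adjusted p = 0.0116), a call that ended without P28 replicate 2 (0.57), and its change against P1 was 0.42 ± 0.18 (adjusted p = 0.0801). The mean of its 5 probe sets changed by 0.37 in P28 against P12 and passed. Another Itga4 probe set (1456498_at), at 4.14 ± 0.12 at P12 and thus close to the background controls, which reached 3.96, passed as higher in P28 against P12 (0.60 ± 0.13) and against P1 (0.52 ± 0.13). The first of these ended with only replicates 3 and 4 of the earlier ages (0.53) and the second with the Gapdh covariate, at a nearly unchanged value (0.52). The other 3 did not pass, and 1 of them averaged under the background controls.

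Itga9 was higher at P28 than at P12 on each of its 3 probe sets. The one with the largest change (1450029_s_at) read 4.32, 4.09, 4.20 and 4.31 at P1, 4.01, 4.13, 4.02 and 4.35 at P12, and 5.45, 5.37 and 5.07 at P28. The P28 arrays stood above all others, while the P1 and P12 arrays lay close to the background controls, which reached 3.96. It rose by 1.17 ± 0.13 in P28 against P12 (adjusted p = 2.85e-05) and by 1.07 ± 0.13 in P28 against P1 (adjusted p = 3.89e-05), and with levels near background at the earlier ages these differences do not give the fold of the RNA. Both calls held under every alternative that kept this probe set. The leading probe set (1420860_at) averaged 5.29 ± 0.30 at P1 (SD, highest array 5.56), and it read 5.24, 5.02, 5.23 and 5.22 at P12, and 5.78, 5.80 and 5.43 at P28. The P28 arrays were above those of P12 and overlapped those of P1, and the change passed in P28 against P12 (0.49 ± 0.16, adjusted p = 0.0346) but not in P28 against P1 (0.38 ± 0.16, adjusted p = 0.0875). The call in P28 against P12 ended with the Gapdh covariate (0.25), with only replicates 3 and 4 of the earlier ages (0.45), and without P12 replicates 1, 2 or 3 or P28 replicates 1 or 2 (0.43 to 0.51). The mean of the 3 Itga9 probe sets passed both in P28 against P12 (0.77) and in P28 against P1 (0.64), and the leading one passed against P1 without P1 replicate 4 (0.47). The remaining probe set (1460285_at) passed in P28 against P12 (0.65 ± 0.16) and against P1 (0.49 ± 0.16), and with the Gapdh covariate neither did (0.56 and 0.40). Its call against P1 also ended with only replicates 3 and 4 of the earlier ages (0.40) and without P1 replicates 1 or 2 (0.46 each) or P28 replicates 2 (0.40) or 3 (0.48). Markers of leukocytes, endothelial cells, pericytes, fibroblasts and satellite cells were more often higher than lower at P28 as well. Their part in the Itga9 values was not tested.

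Itga1, the collagen receptor chain, was lower at P28 on 1 of its 2 probe sets. That probe set (1439713_at) read 5.58, 5.64, 5.89 and 5.85 at P1, 5.76, 5.64, 5.59 and 5.50 at P12, and 4.37, 4.79 and 4.43 at P28. The P28 arrays lay well under the other arrays, which overlapped one another. It fell by 1.09 ± 0.14 in P28 against P12 (2.13-fold lower, adjusted p = 5.76e-05) and by 1.21 ± 0.14 in P28 against P1 (2.31-fold lower, adjusted p = 1.52e-05). Both calls held under every alternative that kept this probe set. Its P28 arrays were not far above the background controls, which reached 3.96, so these differences may not give the fold of the RNA. The leading probe set (1455251_at) read 7.09, 6.82, 7.69 and 7.31 at P1, 6.77, 6.92, 6.91 and 7.05 at P12, and 6.24, 7.01 and 6.90 at P28. Its ages overlapped and its change in P28 against P1, -0.51 ± 0.21, did not pass (adjusted p = 0.0716). It did pass after a further quantile normalization (-0.67), with array weights (-0.57) and with the Gapdh covariate (-0.81). It also passed with only replicates 3 and 4 of the earlier ages (-0.78), and without P1 replicate 2 (-0.65) or P28 replicate 2 (-0.66). The mean of the 2 probe sets passed as well (-0.86), but it includes 1439713_at, which passed by itself.

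The Itga1 probe set 1439713_at had the largest F statistic over the ages of the 35. Among the leading probe sets of 16319 other named genes, those whose pattern over the 11 arrays was most like it were Tigd3, Amer1, Defb13, Gnai1 and Vwa7 (Pearson r = 0.986, 0.983, 0.980, 0.979 and 0.979). These correlations mainly follow the step between P28 and the earlier ages. Gnai1, a G protein alpha subunit, for example averaged 8.88 at P1, 8.64 at P12 and 7.18 at P28.

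Itgb1, the common beta chain of most receptors above, had 2 bright probe sets. The leading one (1452545_a_at) read 9.29, 9.69, 9.90 and 9.77 at P1, 9.98, 9.78, 9.96 and 10.06 at P12, and 9.84, 9.89 and 10.14 at P28. The ages overlapped and no change passed, the largest being 0.30 ± 0.15 in P28 against P1 (adjusted p = 0.144). The other (1426918_at) read 9.38, 9.37, 8.96 and 9.01 at P1, 9.56, 9.49, 9.44 and 9.50 at P12, and 9.86, 9.62 and 10.09 at P28. Its 3 ages did not overlap, and it rose by 0.68 ± 0.15 in P28 against P1 (1.60-fold higher, adjusted p = 0.0026), a call that held under every alternative that kept it. Neither single step passed, at 0.36 ± 0.15 in P28 against P12 and 0.32 ± 0.14 in P12 against P1. Of the other 4, 3 averaged under the highest background control and the last, 1427771_x_at, changed by 0.30 ± 0.16 in P28 against P1 without passing.

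Itgb5, a beta chain that pairs with Itgav to bind vitronectin, had its lowest mean at P12 and its highest at P28 on every probe set. The leading probe set (1456133_x_at) read 8.50, 8.19, 8.40 and 8.37 at P1, 7.74, 7.94, 7.79 and 8.06 at P12, and 9.32, 8.69 and 8.70 at P28. The 3 ages did not overlap. Itgb5 rose by 1.02 ± 0.16 in P28 against P12 (2.03-fold higher, adjusted p = 0.000344), a call that held under every alternative tried. All 4 probe sets passed in this comparison, at 0.57 to 1.41, and the lowest of them (1456195_x_at) was 0.33 and did not pass without P28 replicate 1. It also ended with the Gapdh covariate (0.61), in a fit of the 2 ages alone (0.57), without P12 replicates 1 (0.51) or 3 (0.53), and with only replicates 3 and 4 of the earlier ages (0.60). In P28 against P1 it rose by 0.54 ± 0.16 (adjusted p = 0.0186), and 3 of its 4 probe sets passed, the exception being 1456195_x_at (0.03 ± 0.17), and 1417534_at did not pass with the Gapdh covariate (0.67). The call of the leading probe set ended without P28 replicate 1 (0.33), the highest array, without P1 replicate 2 (0.48), after a further quantile normalization (0.34), with the Gapdh covariate (0.50), and with only replicates 3 and 4 of the earlier ages (0.52). The decrease in P12 against P1 was -0.41 to -0.54 on the 4 probe sets and did not pass (adjusted p = 0.0687 to 0.204). For the leading probe set it passed in a fit of the 2 ages alone (-0.49), after a further quantile normalization (-0.61) and without P28 replicate 1 (-0.49).

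**Figure D3:**
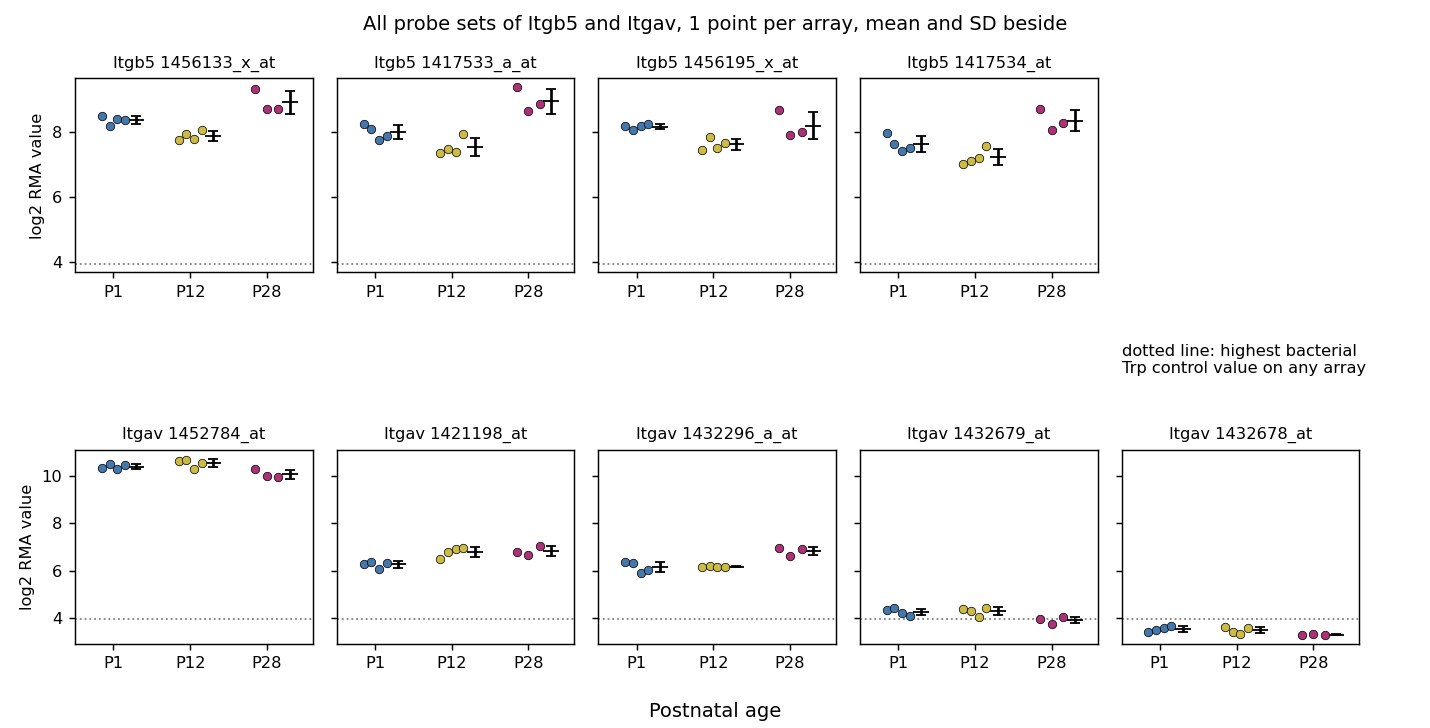
Log2 RMA value (y axis) of all 4 Itgb5 probe sets (top) and all 5 Itgav probe sets (bottom) at P1, P12 and P28 (x axis), with 1 point per array, the mean ± SD beside the points and the highest background control value (3.96) as a dotted line. Each Itgb5 probe set has its lowest mean at P12 and its highest at P28, whereas Itgav 1452784_at is lower and 1432296_a_at higher at P28 than at P12.

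RefSeq promoter windows (GRCm38.p6) were found for 8 of the 10 genes. Those of Itgb5 and Itga4 are printed because the leading probe sets of both genes passed as higher in P28 against P12 and their windows end at the first base of the annotated gene. Each holds the 250 bases before that base, with the E-box CAGCTG, a core that myogenic bHLH factors are known to bind, in capitals.
Itgb5, chr16:33829415-33829664, plus strand: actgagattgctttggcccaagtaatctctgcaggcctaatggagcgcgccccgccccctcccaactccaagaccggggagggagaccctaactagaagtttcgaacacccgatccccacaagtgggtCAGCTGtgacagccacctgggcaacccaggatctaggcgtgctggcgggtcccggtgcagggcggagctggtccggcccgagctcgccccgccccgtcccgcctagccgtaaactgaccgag
Itga4, chr2:79255176-79255425, plus strand: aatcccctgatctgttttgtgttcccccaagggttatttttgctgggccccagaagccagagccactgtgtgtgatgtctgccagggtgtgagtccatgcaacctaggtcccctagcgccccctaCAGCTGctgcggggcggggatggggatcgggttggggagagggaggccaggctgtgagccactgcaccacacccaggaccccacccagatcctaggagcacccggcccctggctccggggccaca
CAGCTG, which reads the same on both strands, occurred 1 time in each window, beginning 122 bases before the start of Itgb5 and 125 before that of Itga4, and 13.0% of 32851 RefSeq windows of this length held it. The wider E-box CANNTG, which includes CAGCTG, occurred 3 times in the Itgb5 window and 1 time in that of Itga4, and 66.2% of all windows held it. GGGCGG on either strand, the GC box of Sp1-type factors, occurred 3 times and 1 time, against 32.7% of all windows with at least 1. Windows of Itga1, lower at P28 on 1 probe set, and Itga9 also held 1 CAGCTG each. Those of Itga3, Itga5, Itgav and Itgb1 held 0, so 4 of the 8 matched genes had it. The windows of Itga3, Itga9 and Itgav did not end at the first base of the annotated gene. Itga3 had more than 1 window, so this count of genes is not a share of windows. A match is a description of the letters only.

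Other genes of the integrin pathway were called more often in the comparisons with P28 than in P12 against P1, as were all genes. Of 103 measured genes of 114 listed (other integrin chains, ligands, cytoplasmic adaptors and kinases, and membrane partners), 10 passed as higher and 5 as lower in P12 against P1, where 5.78% of genes passed. In P28 against P12, 31 passed as higher and 11 as lower (40.8%, background 30.9%), and in P28 against P1, 33 and 15 did (46.6%, background 36.3%). Without P1 replicates 2, 3 or 4 or P12 replicates 1 or 4 the 15 calls of P12 against P1 became 7, 6, 4, 3 and 3.

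Of 14 other integrin chains, 3 passed as higher and 2 as lower in P28 against P12 (35.7%, close to the 30.9% of all genes). Itgb3, another beta partner of Itgav, rose by 1.62 ± 0.26, and the leukocyte chain Itgb2 rose by 0.88 ± 0.22, beside the higher leukocyte markers given above. The leukocyte chain Itgam, itself among those markers, passed at 0.44 ± 0.12. Its probe set averaged 3.94 at P1, 3.70 at P12 and 4.14 at P28, close to the background controls (3.96), so its call allows no statement about a change. Itgb8, a partner of Itgav in the activation of TGF-beta, fell by 0.93 ± 0.19 in P28 against P12, by 0.70 ± 0.18 in P12 against P1 and by 1.64 ± 0.19 in P28 against P1, and Itga8 fell by 0.49 ± 0.16 in P28 against P12. In P28 against P1, Itgb2 (1.67 ± 0.22) and Itgb3 (1.10 ± 0.26) were higher and Itga10, a collagen receptor chain, was lower (-0.47 ± 0.13). Itgb2 had also passed as higher in P12 against P1 (0.79 ± 0.20).

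Among 28 ligands, 7 passed as higher and 4 as lower in P28 against P12 (39.3%, background 30.9%), and 5 and 7 in P28 against P1 (42.9%, background 36.3%). Vitronectin (Vtn), the ligand of the Itgav and Itgb5 pair, averaged 5.58 ± 0.43 at P1, 6.47 ± 0.41 at P12 and 9.26 ± 0.16 at P28 (SD), a rise of 2.79 ± 0.24 in P28 against P12. The matricellular genes Ccn2 (2.90 ± 0.40) and Thbs1 (1.38 ± 0.17) also rose in that comparison. Laminin beta chains moved apart, with Lamb1 at 11.70, 11.08 and 9.15 and Lamb2 at 7.90, 8.13 and 9.33 at P1, P12 and P28, changes of -2.56 ± 0.26 and 1.44 ± 0.17 in P28 against P1. Tenascin-C (Tnc), a ligand of Itga9, fell by 1.62 ± 0.28 in P28 against P12, and nephronectin (Npnt), a ligand of Itga8, fell by 0.86 ± 0.22. Fibronectin (Fn1) did not pass in P28 against P1 (0.26 ± 0.16, adjusted p = 0.24). In P12 against P1, Lama4 (-1.05 ± 0.16), Postn (-0.83 ± 0.19) and Lama5 (-0.52 ± 0.13) were lower and Vtn was higher (0.89 ± 0.22).

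Among 44 adaptors and kinases, 12 passed as higher and 5 as lower in P28 against P12 (38.6%, background 30.9%), and 12 and 6 in P28 against P1 (40.9%, background 36.3%). The tensin Tns2 rose by 1.80 ± 0.25, melusin (Itgb1bp2), a striated muscle protein that binds the Itgb1 tail, by 1.40 ± 0.34, and the PINCH protein Lims2 by 1.37 ± 0.21 in P28 against P12. Tns3 (-0.95 ± 0.15), paxillin (Pxn, -0.66 ± 0.18) and Actn1 (-0.55 ± 0.17) were lower in that comparison. In P28 against P1, Lims2 (1.95 ± 0.21), Tns2 (1.79 ± 0.25) and zyxin (Zyx, 0.96 ± 0.19) were higher. Kank1 (-1.47 ± 0.32), Tns3 (-1.43 ± 0.15) and Fyn (-0.67 ± 0.14) were lower against P1. In P12 against P1, Bcar1 (0.72 ± 0.19) and filamin C (Flnc, 0.61 ± 0.14) were higher and Tns1 was lower (-0.83 ± 0.22).

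Many of the membrane partners were higher at the later ages. Of 17 measured, 6 passed as higher in P12 against P1 (background 3.94%), 9 in P28 against P12 (background 15.5%) and 14 in P28 against P1 (background 19.9%). In limma 0 passed as lower in any of the 3, with 1, 0 and 0 lower at an unadjusted p under 0.05. The tetraspanin Cd9 rose by 1.01 ± 0.17 in P12 against P1 and by 2.83 ± 0.19 in P28 against P1, and Cd151 (0.85 ± 0.14), a tetraspanin that binds laminin-type integrins, and Cd82 (0.70 ± 0.16) rose in P12 against P1. Syndecan 4 (Sdc4), a coreceptor for fibronectin on satellite cells, rose by 1.86 ± 0.16 and the urokinase receptor Plaur by 1.85 ± 0.17 in P28 against P12. Basigin (Bsg) rose by 2.02 ± 0.21 in P28 against P1.

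**Figure D4:**
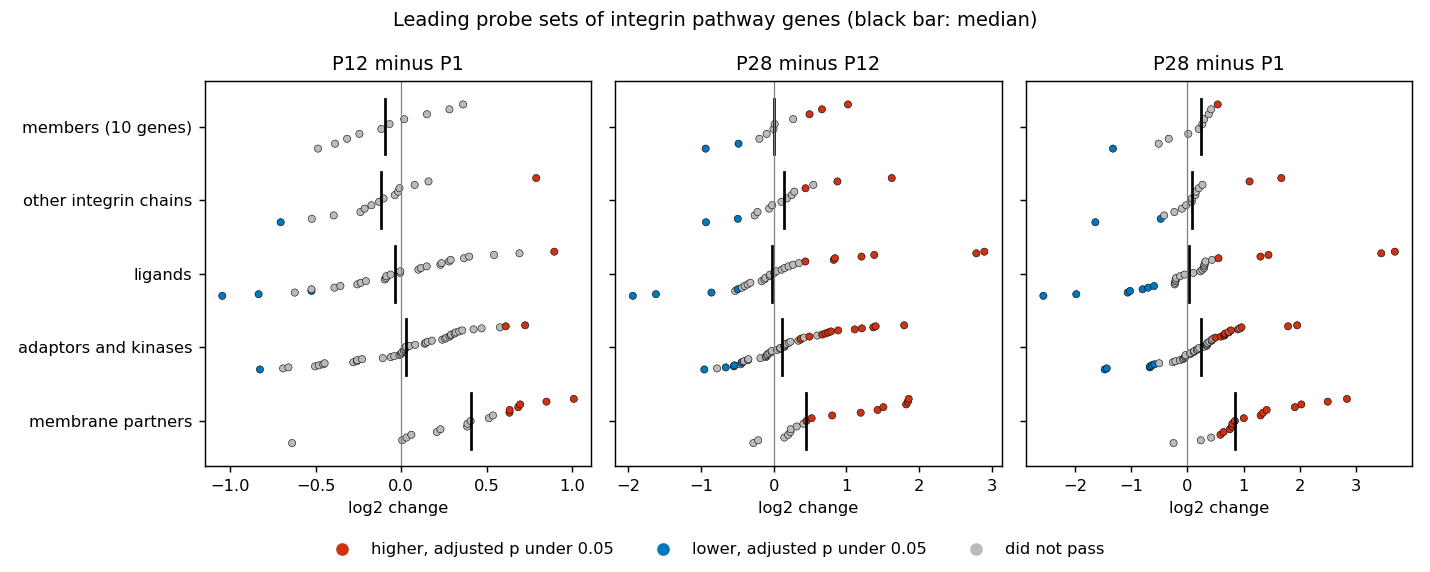
Log2 change (x axis) of the leading probe set of each gene in the 10 members and in 4 lists of pathway genes (y axis) in the 3 comparisons, with 1 point per gene and the median as a black bar. Red and blue points passed as higher and lower; the membrane partners have no blue point in any panel, and the members lie between -1.32 and 1.02 in the 2 comparisons with P28.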

How the data were processed

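RNA of sorted cells was measured on 11 Affymetrix mouse arrays, grouped by the age in their titles. The authors deposited 1 log2 value for each probe set and array, obtained with RMA, which corrects the background, normalizes and summarises probes. Per the submitters' processing notes Affymetrix Expression Console, RMA and affy were used, and versions, roles and whether all arrays were processed together are not given in the sources used here. The values were used as deposited, with 0 unassigned sample columns. Arrays give no read depth, and their number limits the precision.

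Of 45101 probe sets, 64 manufacturer controls were left out, and 34945 of the 45037 others carried 1 gene symbol in the supplied annotation, for 18193 genes. The Entrez identifiers of the 10 members matched the supplied RefSeq table. A linear model with 1 mean per age was fitted in limma 3.58.1 (R 4.3.3) and moderated by eBayes (residual df 8, prior df 5.82). Tests were two-sided, with Benjamini-Hochberg adjustment over all 45037 probe sets, and checked on simulated data. The background level was taken as the highest bacterial Trp control value on any array (3.96). The probe sets were not located in the genes, and those ending in _x_at or _s_at can detect related transcripts.

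The members, lists and tests were chosen with earlier results of these data known. Every member was described. Up to 3 genes per list, comparison and direction with the largest passing change were named, the satellite cell markers, the brightest markers of other cells and the 5 genes most like the member probe set of largest F were added, and Fn1 was added after its values were seen. Same-numbered arrays of P12 and P1 deviated together from their age means (r = 0.14, 0.21, 0.31 and 0.18 for replicates 1 to 4). Differently numbered arrays were not compared, so this does not show pairing by number. Replicates 1 and 2 of both ages also differed from replicates 3 and 4 in the Gapdh difference, and pairing and that split cannot be told apart. The main fit used no pairing, and a replicate block was among the alternatives. Same-numbered arrays of P28 with P12 (r = -0.12 to 0.03) or P1 (r = 0.02 to 0.09) were not taken as paired. Alternatives varied the normalization, the probe sets kept, the spread estimate, array weights, blocks, a 3' to 5' covariate and the arrays included.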

Additional observations from a re-analysis of the deposited data

Results flagged for a closer look

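In groups of 4 arrays, the array farthest from the others was compared with the range of the group by Dixon's criterion. Over 70 groups (35 probe sets at P1 and P12) it marked 4, where chance marks about 1 in 20. The leading Itga9 probe set (1420860_at) was at 5.02 in P12 replicate 2 and at 5.22 to 5.24 in the other P12 arrays. Itgav 1432296_a_at was at 6.21 in P12 replicate 2 and at 6.14 to 6.15 in the others. Itga3 1460305_at was at 5.19 in P12 replicate 4 and at 5.47 to 5.52 in the others. Itgb1 1438119_at, which averaged under the background controls, gave 3.62 in replicate 4 of P1, its other P1 arrays lying at 3.23 to 3.29. Without P12 replicate 2 the call of Itga9 in P28 against P12 ended (0.44), and the Itgav and Itga3 calls held without those arrays.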

How the results depend on the processing

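The 26 alternative settings turned the direction of 0 called integrin values. The number of integrin probe sets that passed in P12 against P1, 1, was 3 after a further quantile normalization and in a fit of the 2 ages alone, 2 with array weights, 0 with eBayes trend and robust options, within replicates 1 and 2, with 1 probe set per gene and with probe sets averaged by gene, and 0 to 3 without each replicate in turn. In P28 against P12, 16 became 5 with 1 probe set per gene, 5 with probe sets averaged by gene (10 genes each), 9 without dim probe sets (19 tested), 10 with the Gapdh covariate and 12 to 16 without each replicate. In P28 against P1, 13 became 2 with 1 probe set per gene, 5 with the mean of probe sets, 9 with the Gapdh covariate, 9 without dim probe sets (19 tested) and 12 to 15 without each replicate. The F test over the ages gave 16, and 13 to 17 without each replicate. With the replicate block 1 probe set passed in P12 against P1, 15 in P28 against P12 and 14 in P28 against P1, and it changed 0 of 35 calls in P12 against P1. It ended the call of Itgav 1432679_at in P28 against P12 (-0.38) and gave 1 to Itga3 1455158_at in P28 against P1 (0.34). The pathway calls in P12 against P1, 15, ranged from 3 to 16 without each replicate. Settings with 1 value per gene or without dim probe sets test fewer features, and the cause of the other changes was not tested. Values under alternatives that ended the calls of a leading probe set stand beside those results. The 3 arrays at P28 and their coincidence with another set of muscles limit every comparison with P28, probe sets under the background controls allow no statement about a change, and those near them at 1 age do not give its fold.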
